A study of Mus musculus with 2 samples.

Results

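The transcripts followed here are those of 46 cell cycle genes, 20 that serve DNA replication in S phase and 26 that serve mitosis, in immune cells sorted from liver metastases of the mouse. The genes were taken by symbol, and all 46 were found once each among the 56941 features of the count matrices, of which 34516 had at least 1 count. Each count is a unique molecular identifier (UMI), that is, 1 captured RNA molecule of 1 cell. C57BL/6 mice aged 6 to 8 weeks received MC38-LM3b cells, a mouse colorectal cancer derivative, by injection into the spleen, and 2 weeks later CD45+ cells of the liver lesions were profiled by droplet 3' single-cell RNA sequencing. The injected tumour cells carried either a scrambled hairpin (shScramble, the Ctrl group) or a hairpin against SLAMF3 (shSLAMF3, the KD group), and the immune cells of the host carried neither. There was 1 library per group, each pooled from the lesions of 3 mice, so no difference between Ctrl and KD has a replicate check and none was tested. Intervals are exact 95% intervals that cover counting error only.

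Cells divide in an ordered programme. In late G1 the helicase Mcm2 to Mcm7 is loaded on DNA by Cdc6, in S phase it is opened by Cdc45 and the GINS complex, and DNA synthesis then draws on the sliding clamp Pcna and on nucleotides made by ribonucleotide reductase (Rrm1 and Rrm2), thymidylate synthase (Tyms) and dUTPase (Dut). Mitosis is driven by Cdk1 with its A and B cyclins and ended when the anaphase-promoting complex, helped by Cdc20 and Ube2c, destroys them. Many S-phase genes are switched on by E2F factors at the start of replication, and many mitotic genes later through a promoter word called the cell cycle homology region (CHR), often near CCAAT boxes. In a tumour, activated T cells divide after meeting antigen, macrophages come from blood monocytes and can also divide in place, and mature granulocytes have left the cell cycle.

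RefSeq promoter windows on the GRCm38.p6 build, from 250 bases before to 50 bases after the start of transcription, were found for 40 of the 46 genes, 17 S-phase and 23 mitotic. The build is not the GRCm39 assembly to which the reads were aligned, so the windows show sequence only. The CHR (TTTGAA or TTCGAA, either strand) lay in 18 of 23 mitotic windows, or 78.3%, and in 3 of 17 S-phase windows, or 17.6%, against 21.7% of the windows of all 27025 genes listed. Words bound by E2F (TTTGGCGC, TTTCCCGC, TTTCGCGC or TTTGCCGC, either strand) lay in 8 of 17 S-phase windows, or 47.1%, and in 1 of 23 mitotic windows, that of Cdk1, against 2.605% of all. The CCAAT box lay in 12 of 17 S-phase and 19 of 23 mitotic windows, or 70.6% and 82.6%, against 41.1% of all. The sets thus differed most in the CHR and the E2F words. A match of letters is a description and not a bound site, and words that overlapped were counted once per gene. Of each set 2 genes are shown, to let the words be seen. Mcm6 encodes a helicase subunit and Pclaf a partner of Pcna, Cdk1 the mitotic kinase and Cdc20 the activator of the anaphase-promoting complex. The 200 bases before the start are printed in the gene's direction, with CHR, CCAAT and E2F words of either strand in capitals. They lie at chr1:128359706-128359905 on the minus strand (Mcm6), chr9:65890123-65890322 on the plus strand (Pclaf), chr10:69352913-69353112 on the minus strand (Cdk1) and chr4:118437344-118437543 on the minus strand (Cdc20).
Mcm6: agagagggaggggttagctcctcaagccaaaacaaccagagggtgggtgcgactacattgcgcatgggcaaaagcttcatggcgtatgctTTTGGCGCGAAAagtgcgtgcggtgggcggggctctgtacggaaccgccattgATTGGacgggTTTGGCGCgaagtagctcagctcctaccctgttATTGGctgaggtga
Pclaf: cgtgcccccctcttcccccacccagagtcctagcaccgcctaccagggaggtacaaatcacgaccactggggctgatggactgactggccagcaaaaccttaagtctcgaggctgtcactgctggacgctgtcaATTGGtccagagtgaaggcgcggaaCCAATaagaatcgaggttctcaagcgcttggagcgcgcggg
Cdk1: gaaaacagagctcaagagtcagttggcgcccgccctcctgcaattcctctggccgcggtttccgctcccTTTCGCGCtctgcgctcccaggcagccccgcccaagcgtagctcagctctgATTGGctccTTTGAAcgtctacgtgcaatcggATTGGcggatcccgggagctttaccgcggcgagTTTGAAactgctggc
Cdc20: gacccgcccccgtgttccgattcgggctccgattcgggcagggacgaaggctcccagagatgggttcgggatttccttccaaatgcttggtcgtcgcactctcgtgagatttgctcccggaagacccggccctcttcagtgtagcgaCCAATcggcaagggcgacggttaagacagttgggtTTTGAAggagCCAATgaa
In these 4 stretches the CHR stood at 71 and 15 bases before the start of Cdk1 and at 18 bases before that of Cdc20, counted from the first base of the word. E2F words began 110, 106 and 47 bases before the start of Mcm6, the first 2 of them overlapping, and 131 bases before that of Cdk1. Pclaf carried 2 CCAAT boxes, and its E2F word began 5 bases before the start and so runs past the end of the printed stretch.

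The 2 libraries held 10416 (Ctrl) and 10943 (KD) barcodes with 67207234 and 64444715 UMIs, of which 9814 and 10185 cells were kept, at a median of 5411.5 and 4989 UMIs. Clustering without 385 cell cycle genes gave 17 clusters, named from marker genes as rebuilt classes, and 1 cluster of 237 Ctrl and 218 KD cells led by Ifng and Gzma stayed unnamed. The class that met the rule for NK cells, led by Klra7, Lef1 and Ncr1, went against that name: among its thinned cells, each reduced at random to 1500 UMIs, 186 of 393 in Ctrl and 405 of 713 in KD had a Cd3 UMI and none of the NK genes Ncr1 and Klrb1c, and 78 and 121 had an NK gene and no Cd3. It is called the Klra7-led class here and not NK cells. The CD45 gene Ptprc was found in 49.6% to 90.8% of Ctrl cells of the immune classes, thinned in the same way, but in 7.32% of endothelial cells and 4.58% of tumour or fibroblast cells, so the sorted marker was seldom seen in those classes. Ly9, the gene of SLAMF3, had 12 UMIs in Ctrl and 7 in KD among tumour or fibroblast cells, 5.91 and 5.36 UMIs per 1000000 UMIs of the class (CPM), too few to check the knockdown. In T cells, which carry no hairpin, it stood at 22.8 and 27.7 CPM. The libraries shared 27 barcodes, held by 50 kept cells, and leaving those cells out moved none of the summed values beyond their counting intervals.

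T cells carried most of the cell cycle RNA. They were 32.1% of the kept cells in Ctrl, yet held 69.0% of all S-phase UMIs and 68.7% of all mitotic UMIs of the 46 genes. In KD they were 15.3% of the cells and held 49.7% and 47.6%. Macrophages were 42.1% and 30.3% of the cells and held 17.6% and 19.6% of the S-phase UMIs. Their share of the mitotic UMIs was 17.4% in both libraries. Over all kept cells the S-phase sum was 1512 CPM in Ctrl and 811 in KD, a log2 ratio of KD over Ctrl of -0.90, and the mitotic sum was 2485 and 1416, a log2 ratio of -0.81. These pooled ratios mixed the make-up of the libraries with the level inside each class, so each class was then read on its own. All values per class are on this scale, and on it fewer dividing cells and less RNA per dividing cell cannot be told apart.

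**Figure D1:**
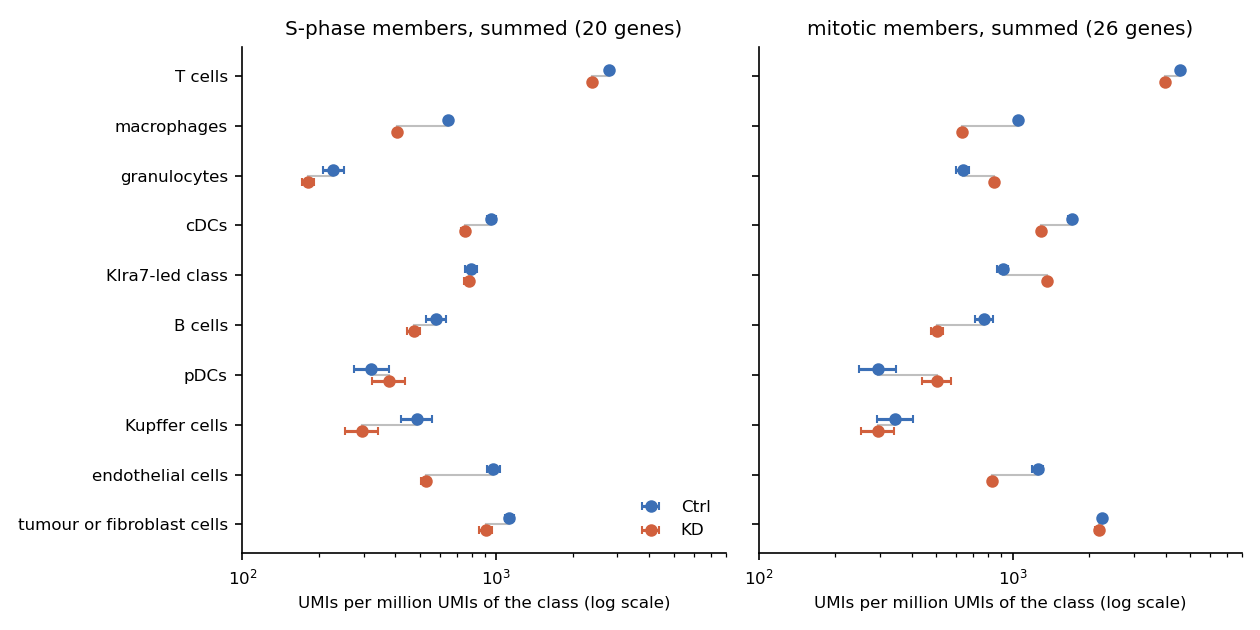
Summed CPM (log axis) of the 20 S-phase genes (left) and the 26 mitotic genes (right) in 10 classes of cells, blue for Ctrl and orange for KD, with exact 95% counting intervals and a grey line joining the libraries. T cells lie highest in both panels, and the mitotic sum lies lower in KD for macrophages and cDCs but higher for granulocytes and the Klra7-led class.

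Among the named immune classes the order of the mitotic sum in Ctrl was T cells (4557 CPM), conventional dendritic cells or cDCs (1706), macrophages (1053), the Klra7-led class (912), B cells (770), granulocytes (634), Kupffer cells (345) and plasmacytoid dendritic cells or pDCs (294). The counting intervals of Kupffer cells and pDCs overlapped, and all other neighbours in this order stood apart. In KD the order was T cells (3990), the Klra7-led class (1370), cDCs (1292), granulocytes (841), macrophages (630), B cells (505), pDCs (502) and Kupffer cells (294), with B cells and pDCs at nearly the same value. The S-phase sum in Ctrl also had T cells first (2785) and cDCs next (956), but there granulocytes were last (228). The unnamed cluster led by Ifng and Gzma was left out of these orders. It stood below T cells and above every ranked class after them in both libraries. Its mitotic sum was 2946 CPM in Ctrl and 2320 in KD (log2 -0.34), and its S-phase sum 1643 and 1173 (-0.49). Tumour or fibroblast cells, the class that holds the injected line, stood at 2256 CPM in Ctrl and 2186 in KD for the mitotic sum, below T cells in both libraries. Hmgb2, a chromatin protein of dividing cells that many resting cells also express, alone gave 40729 of the 109721 mitotic UMIs of Ctrl T cells.

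T cells were then set against macrophages, the largest other source of these UMIs, within each library. All 20 S-phase and all 26 mitotic genes were at least 1.5-fold higher in T cells than in macrophages, in Ctrl and again in KD. Of all features with at least 50 UMIs over both classes, 37.9% in Ctrl and 35.9% in KD were that much higher in T cells. The median log2 ratio of T cells over macrophages was 1.97 for S-phase and 1.96 for mitotic genes in Ctrl, and 2.39 and 2.63 in KD.

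In T cells the genes were slightly lower in KD. The S-phase sum was 2785 CPM in Ctrl and 2387 in KD, a log2 ratio of -0.22 (-0.24 to -0.20). The mitotic sum was 4557 and 3990, a log2 ratio of -0.19 (-0.21 to -0.18). The log2 ratio was below 0 for 18 of 20 S-phase and 25 of 26 mitotic genes, with medians of -0.19 and -0.21 against -0.03 over all features. Past 1.5-fold, the size used as a call throughout for features with at least 50 UMIs over both libraries, there was 1 mitotic gene and no S-phase gene, where 5.24% of all features were called lower and 5.7% higher. The shift was thus common to nearly all members but small, and its size depended on how cells were grouped. At a finer clustering, where a Gzma-led cluster received no name and left the class, the sums were -0.56 (S-phase) and -0.67 (mitotic) on the log2 scale, and with the cell cycle genes kept in the clustering they were -0.20 and -0.091.

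Among the replication genes of T cells, the helicase subunit Mcm5 stood at 70.5 CPM in Ctrl and 56.3 in KD (log2 -0.32), and Mcm6 at 172 and 177 (0.04). The clamp Pcna was 299.8 and 278.7 (-0.11). Of the nucleotide enzymes, Rrm2 was 66.0 and 58.2 (-0.18), Tyms 88.6 and 81.0 (-0.13) and Dut 776 and 594 (-0.39), the lowest ratio of the S-phase set. Slbp, which binds the hairpin of histone mRNAs, was 142 and 131 (-0.12), and Ccne2, a cyclin of the G1 to S step, was 16.3 and 16.8 (0.04). Nucleotide synthesis and helicase genes therefore covered the whole range of the S-phase set, with Mcm6 and Ccne2 on the upper side of 0.

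Among the mitotic genes of T cells, the proliferation marker Mki67 was 187 CPM in Ctrl and 181 in KD (log2 -0.04; -0.12 to 0.03), a ratio whose interval held 0. The topoisomerase Top2a was 330.1 and 290.4 (-0.18), the kinase Cdk1 124 and 112 (-0.15) and its cyclin Ccnb2 94.0 and 86.0 (-0.13). The lowest ratio was that of the cyclin Ccnb1, the single gene called, which was 38.1 and 25.2 (-0.60; -0.80 to -0.40). It was followed by the polo kinase Plk1 at 31.7 and 22.7 (-0.48; -0.70 to -0.27) and Cdc20 at 49.96 and 36.6 (-0.45; -0.62 to -0.28). Kif23, a kinesin of the dividing cell's midzone, was 47.5 and 47.9 (0.01), and Hmgb2 was 1692 and 1529 (-0.15).

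In macrophages all 46 genes were lower in KD, by more than in T cells. The S-phase sum was 648 CPM in Ctrl and 406 in KD, a log2 ratio of -0.67 (-0.71 to -0.64), and the mitotic sum 1053 and 630, a log2 ratio of -0.74 (-0.77 to -0.71). At least 1.5-fold lower were 14 of 20 S-phase and 24 of 26 mitotic genes, where 9.42% of all features of the class were called lower, and none was that much higher, where 6.34% were. The medians were -0.74 for S-phase and -0.85 for mitotic genes against -0.03 over all features, and every one of the 46 intervals lay below 0.

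In the S-phase set of macrophages, Pclaf was 74.5 CPM in Ctrl and 30.4 in KD (log2 -1.29; -1.42 to -1.17), and Uhrf1, which keeps DNA methylation through replication, 21.8 and 9.38 (-1.22; -1.44 to -0.99). Tyms was 21.2 and 11.3 (-0.91), Rrm2 17.3 and 9.75 (-0.83), Mcm5 16.9 and 11.4 (-0.56) and Pcna 142 and 106 (-0.43). Slbp, at 53.8 and 44.4 (-0.28; -0.39 to -0.16), was the member nearest 0. Pcna and Slbp therefore differed less between the libraries than Pclaf and Uhrf1.

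In the mitotic set of macrophages, Cenpf, a kinetochore protein of G2 and mitosis, was 19.2 CPM in Ctrl and 5.97 in KD (log2 -1.68; -1.96 to -1.41), the lowest ratio of all 46 genes. Tpx2, a spindle factor that switches on Aurora A, was 24.1 and 9.96 (-1.28), Top2a 81.2 and 34.8 (-1.22), Cdc20 10.2 and 4.77 (-1.10) and Ccnb1 8.35 and 3.98 (-1.07). Cdk1 was 33.1 and 18.5 (-0.84), Mki67 51.7 and 30.5 (-0.76) and Ccnb2 16.6 and 10.0 (-0.73). The members nearest 0 were Cenpa, the centromeric histone, at 57.5 and 45.4 (-0.34), and Hmgb2 at 388 and 263 (-0.56). Without Hmgb2 the mitotic sum had a log2 ratio of -0.86. Summed T cell markers in macrophages were 47.6 CPM in Ctrl and 37.8 in KD, with all 10 markers detected, against 5578 and 5265 in T cells themselves. In macrophages with UMIs of at least 3 mitotic genes after thinning to 1500 UMIs they were 40.2 CPM in Ctrl (22 UMIs) and 28.2 in KD (5 UMIs). In the other macrophages they were 49.3 and 28.8. The part of T cell RNA in the mitotic sum was not tested.

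**Figure D2:**
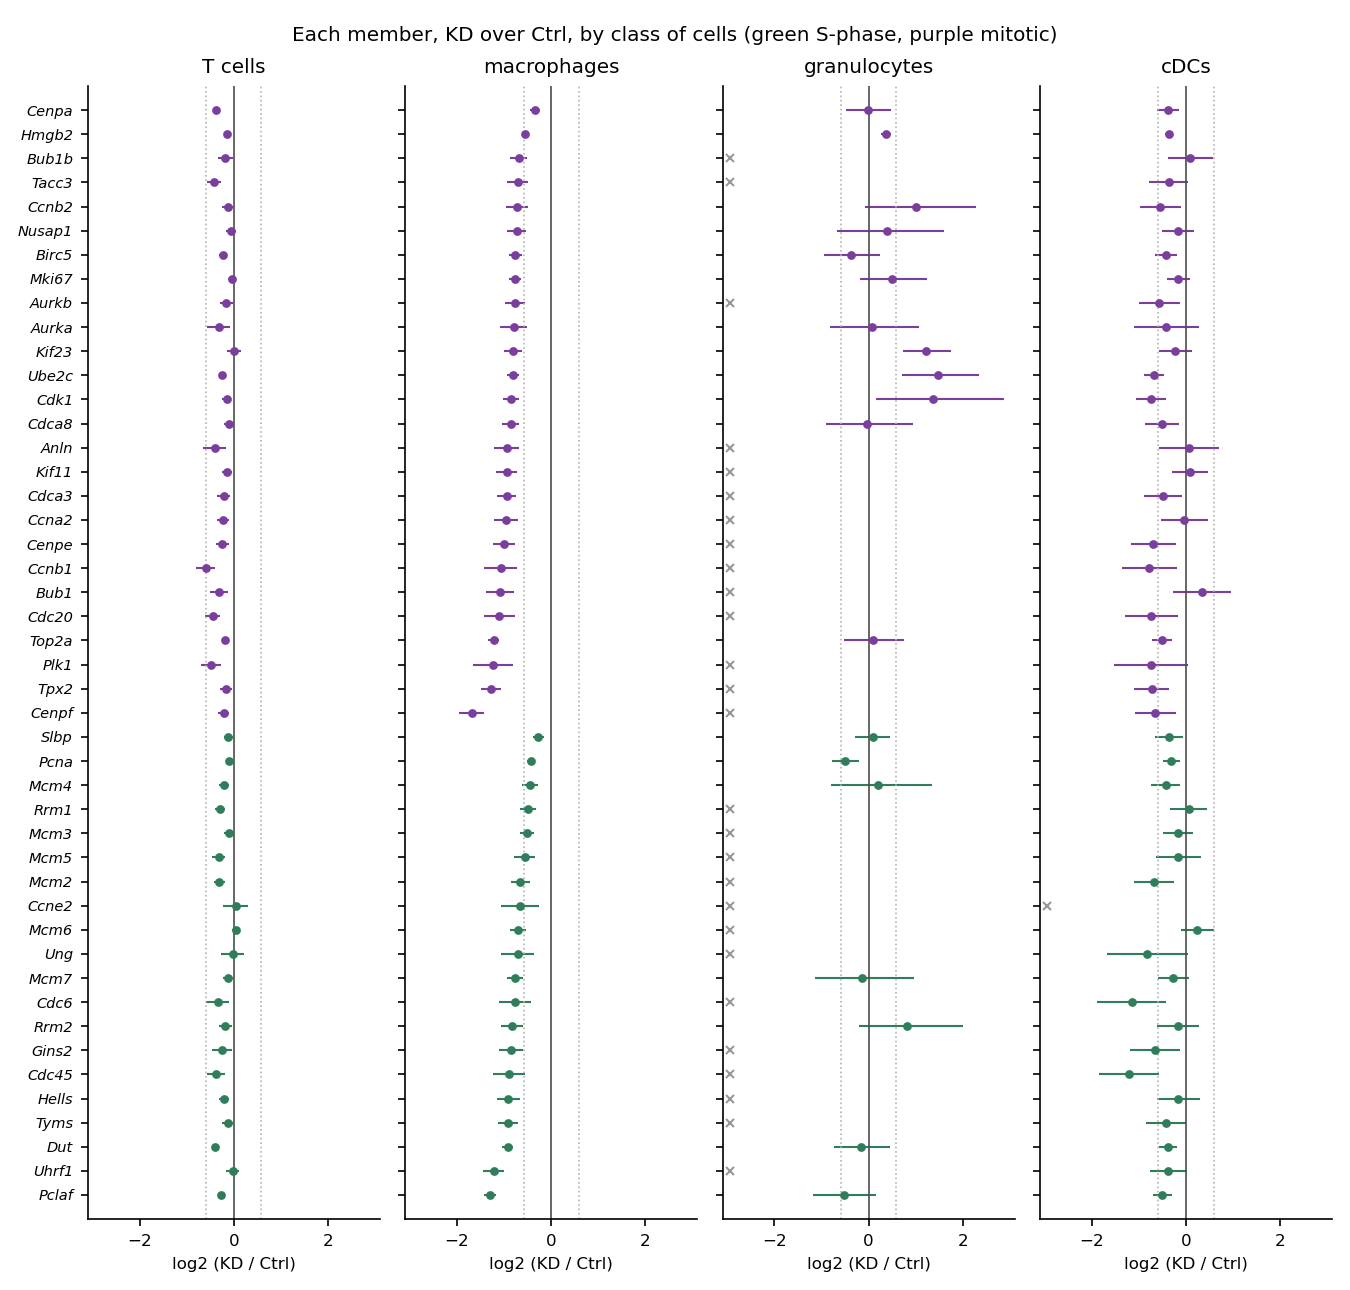
Log2 ratio of KD over Ctrl for each of the 46 genes (rows, S-phase green and mitotic purple) in T cells, macrophages, granulocytes and cDCs, with 95% counting intervals, dotted lines at 1.5-fold, and a grey cross at the left edge where a gene had under 50 UMIs over both libraries. In macrophages all 46 points lie left of 0, in T cells they lie close to it, and in granulocytes few genes could be read.

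Granulocytes held few of these transcripts. The S-phase sum was 228 CPM in Ctrl and 181 in KD (log2 -0.34; -0.50 to -0.17), while the mitotic sum was 634 and 841 (0.41; 0.32 to 0.50). Only 7 S-phase and 12 mitotic genes reached 50 UMIs, and of these 1 S-phase and 4 mitotic genes were called higher, where 21.4% of all features were, and none was called lower, where 14.7% were. The median log2 ratio of the 12 mitotic genes was 0.38 against 0.15 over all features. With a minimum of 200 UMIs 1 mitotic gene was called higher, and with a minimum of 1 UMI 10 were, so the count rested on low counts. Ube2c, which feeds the anaphase-promoting complex with ubiquitin, had 15 UMIs in Ctrl and 166 in KD, or 8.21 and 22.7 CPM (1.47; 0.70 to 2.34). Cdk1 had 6 and 62 UMIs (1.37; 0.16 to 2.87), and Kif23 38 and 355 (1.22; 0.74 to 1.75). The direction for Ube2c held when UMIs were pooled over cells but not when each cell was weighted equally, where its log2 ratio was -0.19.

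Other granulocyte values lay nearer to each other in Ctrl and KD. Hmgb2, which gave most of the mitotic sum, was 474 and 616 CPM (log2 0.38), Mki67 11.5 and 16.3 (0.50), Top2a 14.8 and 15.7 (0.09) and Ccnb2 4.38 and 8.75 (1.00). Of the S-phase set, Rrm2, the 1 gene called, was 4.93 and 8.61 CPM (0.81; -0.21 to 2.00), an interval that held 0, and its ratio turned to -0.12 with equal weight per cell and again with the cell cycle genes kept in the clustering. Slbp was 42.2 and 44.7 (0.09). The lowest ratios were those of Pclaf (-0.53), Pcna (-0.50) and Birc5 (-0.37), a survivin that guides chromosomes at division. Tyms (16 and 24 UMIs), Mcm5 (3 and 18), Ccnb1 (7 and 23) and Cdc20 (2 and 18) were too sparse to read, and Plk1 had 0 UMIs in Ctrl, which allows up to 1.64 CPM, and 13 in KD.

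In cDCs the genes were lower in KD. The S-phase sum was 956 CPM in Ctrl and 751 in KD (log2 -0.35; -0.42 to -0.28), and the mitotic sum 1706 and 1292 (-0.40). Of 19 S-phase genes with enough UMIs 5 were called lower, and of 26 mitotic genes 8, where 5.5% of all features were. None was called higher, where 6.54% were. The medians were -0.38 and -0.46 against -0.00 over all features. At a minimum of 200 UMIs no S-phase gene and 3 mitotic genes were called. The lowest ratios in this class were those of the origin factors, Cdc45 at 17.996 and 7.80 CPM (-1.21; -1.85 to -0.57) and Cdc6 at 13.9 and 6.24 (-1.15; -1.88 to -0.43), followed by the uracil glycosylase Ung at 8.998 and 5.07 (-0.83; -1.69 to 0.04), whose interval held 0. Among the mitotic genes, Ccnb1 was 18.4 and 10.7 (-0.78), Cdk1 60.0 and 35.9 (-0.74), Cdc20 19.1 and 11.5 (-0.73), Ccnb2 29.2 and 20.1 (-0.54) and Top2a 121 and 84.8 (-0.51).

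Mki67 in cDCs was 78.4 and 70.2 CPM (log2 -0.16), Hmgb2 613 and 477 (-0.36), Pcna 165 and 133 (-0.31) and Slbp 58.9 and 45.6 (-0.37). Mcm5 was 22.5 and 20.1 (-0.16), Rrm2 25.9 and 23.0 (-0.17) and Tyms 30.4 and 22.6 (-0.43). Of 19 S-phase genes 2 and of 26 mitotic genes 4 had a ratio above 0. The highest were the checkpoint kinases Bub1 (12.4 and 15.6, log2 0.33) and Bub1b (21.4 and 22.6, 0.08) and Mcm6 (36.7 and 43.3, 0.24), and their intervals held 0.

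In the Klra7-led class, which mixed cells with Cd3 and cells with NK genes, the mitotic sum was 912 CPM in Ctrl and 1370 in KD (log2 0.59; 0.50 to 0.67), while the S-phase sum was 794 and 778 (-0.03; -0.13 to 0.07). Of 20 mitotic genes with enough UMIs 14 were called higher in KD, and of 15 S-phase genes 2, where 5.52% of all features were. Ube2c was 25.6 and 77.3 CPM (1.59; 1.12 to 2.09), Cdk1 13.99 and 35.1 (1.33) and Top2a 49.0 and 84.9 (0.79), while Pcna was 140.4 and 135.6 (-0.05). This class was sensitive to how cells were grouped. The mitotic sum had a log2 ratio of -0.40 when the cell cycle genes were kept for the clustering, and 1.31 when cells were classed as NK cells by their own markers. Summed T cell markers stood at 2020 and 2398 CPM in the class, and their part in the result was not tested. Of its thinned cells with Cd3 and no NK gene, 8 of 186 in Ctrl (4.30%) and 14 of 405 in KD (3.46%) had UMIs of at least 3 mitotic genes, and of those with an NK gene and no Cd3, 3 of 78 (3.85%) and 11 of 121 (9.09%). The intervals of both differences held 0, -5.13 to 2.48 and -3.05 to 12.5 percentage points.

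Outside these classes, endothelial cells had 11 of 15 S-phase and 13 of 22 mitotic genes lower in KD (9.63% of all features), with sums of 972 and 527 CPM (S-phase, log2 -0.88) and 1252 and 830 (mitotic, -0.59). In B cells the mitotic sum was 770 and 505 CPM (-0.61), and in pDCs it was 294 and 502 (0.77). In tumour or fibroblast cells the mitotic sum was 2256 and 2186 CPM (-0.05; -0.11 to 0.02), an interval that held 0, and the S-phase sum 1123 and 909 (-0.31; -0.41 to -0.20). Mki67 in that class was 70.5 and 39.8 CPM (-0.82), and Top2a 321 and 205 (-0.64), from 161 Ctrl and 95 KD cells. Other mitotic genes there went the other way. Of the 26, 11 had a ratio above 0 and 15 below, from Bub1 (-1.06) to Ube2c (0.75). Their median was -0.15 against -0.13 over all features.

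The sums do not say how many cells carried the genes, so cells were next counted. Each cell with at least 1500 UMIs was thinned at random to 1500, which made depth equal, and a cell was called mitotic-high when at least 3 of the 26 mitotic genes had a UMI, and S-high when at least 3 of the 20 S-phase genes did. The cut is a point on a range and not a cell type: 7.62% of Ctrl T cells had exactly 3 mitotic genes and 18.8% exactly 2. Mature granulocytes, which have left the cell cycle, give a level to read the shares against: in the G0s2-led cluster 0.81% of Ctrl and 0.524% of KD cells were mitotic-high, and whether these calls came from free RNA, mixed droplets or the cells' own RNA was not tested. Granulocyte cells were shallow before thinning, at a median of 2145 and 2816.5 UMIs against 6460 and 5443.5 in T cells.

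Of the T cells, 36.3% (1076 of 2965; 34.6 to 38.1) were mitotic-high in Ctrl and 27.5% (417 of 1514; 25.3 to 29.9) in KD, a difference of -8.75 percentage points (-11.6 to -5.85). Before thinning the shares were 63.0% and 51.6%. S-high cells were 38.0% and 31.3% of the T cells, cells high for both sets 24.2% and 18.4%, and cells high for either 50.2% and 40.5%. In both libraries the share of mitotic-high T cells was thus far above that in the granulocyte cluster, and it was lower in KD.

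Of the macrophages, 9.51% (365 of 3837) were mitotic-high in Ctrl and 4.01% (118 of 2942) in KD, a difference of -5.50 points (-6.69 to -4.31), and S-high cells were 6.39% and 3.13%. Without thinning the shares were 23.9% and 18.7%, closer to each other, and the median depths were 5580 and 7409 UMIs. In cDCs the shares were 14.8% and 10.5%, a difference of -4.28 points (-9.12 to 0.28) whose interval held 0. In granulocytes they were 1.07% and 0.979%, and in the Klra7-led class 3.82% and 4.63%, both differences with intervals that held 0, and since the mitotic sums of these classes were higher in KD no order was read from the shares. Of pDCs 0 of 80 Ctrl cells were mitotic-high, which allows a share of up to 3.75% by the limit of 3 cells over the total, and of Kupffer cells 0 of 44, which allows up to 6.82%. B cells stood at 1.67% and 0.627%, endothelial cells at 10.6% and 5.13%, and tumour or fibroblast cells at 34.0% and 30.0%.

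**Figure D3:**
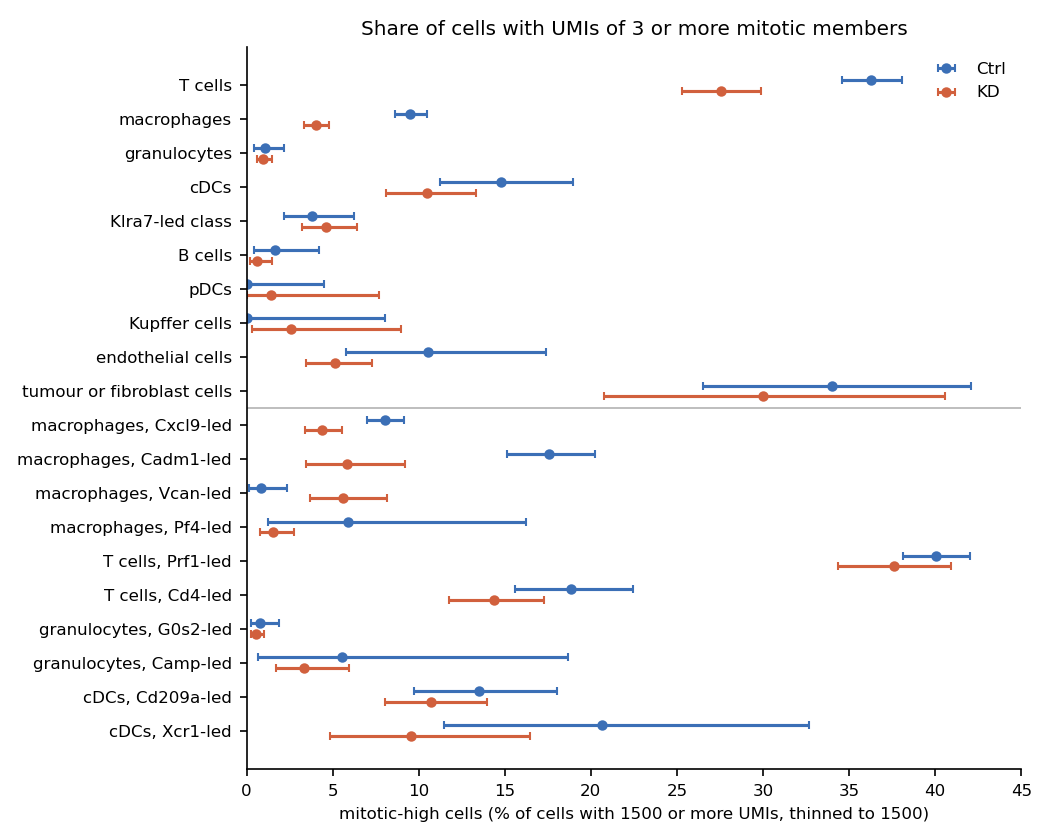
Percent of cells with UMIs of at least 3 mitotic genes after thinning to 1500 UMIs (horizontal axis), by class above the grey line and by cluster of 4 classes below it, blue for Ctrl and orange for KD, with exact 95% binomial intervals. T cells lie at 36.3% and 27.5% and macrophages at 9.51% and 4.01%, while of the macrophage clusters the Vcan-led one alone lies higher in KD.

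The number of members per cell gave the same picture without a cut. In T cells 17.7% of Ctrl and 24.6% of KD cells had no mitotic gene, and 23.1% and 18.4% had 5 or more. In macrophages 52.7% and 63.7% had none, and 5.24% and 2.38% had 5 or more. The cells called mitotic-high were chosen by these genes, so the sums within them are a description and say nothing of the level per dividing cell. The mitotic sum was 7448 CPM in Ctrl and 8048 in KD for T cells (log2 0.11; 0.06 to 0.16), and 4910 and 5452 for macrophages (0.15; 0.04 to 0.26). In the other cells it was 978 and 836 for T cells (-0.23) and 396 and 283 for macrophages (-0.48).

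**Figure D4:**
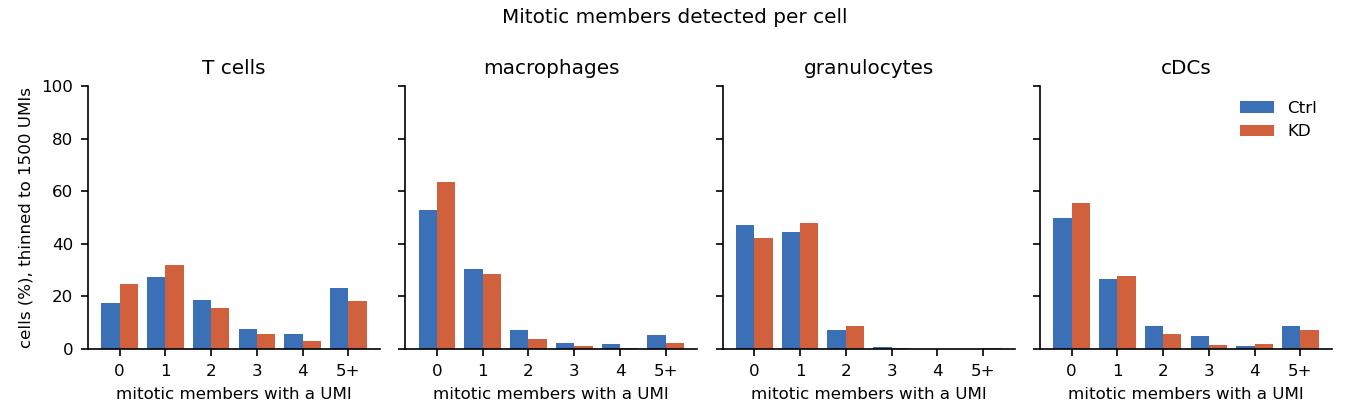
Percent of cells (vertical axis) by the number of the 26 mitotic genes with a UMI (horizontal axis, 5+ for 5 or more) after thinning to 1500 UMIs, in T cells, macrophages, granulocytes and cDCs, blue bars for Ctrl and orange bars for KD. T cells have the most cells with 5 or more genes, 23.1% in Ctrl and 18.4% in KD, and granulocytes have almost none.

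Inside the T cell clusters the sums differed less than over the whole class. The Prf1-led cluster, in which Cd8a and Cd8b1 also lead, held 78.0% of the Ctrl but 55.0% of the KD T cells. There the mitotic sum was 4830 and 4884 CPM (log2 0.02; -0.00 to 0.03), the S-phase sum 2913 and 2746 (-0.09), and 40.1% and 37.6% of cells were mitotic-high, a difference of -2.46 points (-6.26 to 1.41). The Cd4-led cluster held the rest, and there the mitotic sum was 2525 and 2402 (-0.07), the S-phase sum 1829 and 1749 (-0.06), and 18.8% and 14.4% of cells were mitotic-high, a difference of -4.47 points (-8.91 to -0.10). The interval thus held 0 in the Prf1-led but not in the Cd4-led cluster. No member was called in either cluster, where 6.11% and 5.86% of features were called lower in KD. Of the 26 mitotic genes 13 had a ratio above 0 and 13 below in the Prf1-led cluster. The Prf1-led cluster, with the higher level in both libraries, also made up less of the class in KD than in Ctrl.

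T cells were also split by their own transcripts in the thinned cells. Of cells with a CD8 gene and no Cd4, 37.7% in Ctrl and 34.6% in KD were mitotic-high, a difference of -3.02 points (-7.86 to 1.94). Of CD4 cells 16.3% (14 of 86) and 8.54% (17 of 199) were, a difference of -7.74 points (-17.9 to 0.81). Both intervals held 0. CD8 cells with a UMI of the inhibitory receptor Pdcd1 stood at 36.6% and 37.2%, and those without at 38.2% and 33.8%. CD8 cells with Tcf7, a gene of naive and progenitor T cells, stood at 7.32% (3 of 41) and 13.6% (3 of 22). Gzma, a granzyme, divided the libraries in opposite ways. CD8 cells with a Gzma UMI were 24.0% (50 of 208) mitotic-high in Ctrl and 36.2% (67 of 185) in KD, a difference of 12.2 points (2.75 to 21.5), and those without were 39.9% and 33.7%, a difference of -6.16 points (-11.98 to -0.10). The unnamed cluster led by Ifng and Gzma lay outside the T cell class and this split. Of its cells 28.8% (68 of 236) were mitotic-high in Ctrl and 22.6% (49 of 217) in KD. That difference was -6.23 points (-14.5 to 2.15), an interval that held 0. Gzma itself was 284 CPM in Ctrl T cells and 1709 in KD, and 7.098 and 14.9 CPM in macrophages, which should lack it.

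The macrophage clusters did not share 1 direction. In the Cxcl9-led cluster, 63.1% of the Ctrl and 48.8% of the KD macrophages, the mitotic sum was 975 and 590 CPM (log2 -0.73; -0.76 to -0.69), all 26 mitotic genes were below 0 and 16 were called lower (5.88% of features). In the Cadm1-led cluster, 26.5% and 12.2%, it was 1687 and 784 (-1.11; -1.20 to -1.01), and 23 mitotic and 17 of 19 S-phase genes were called lower (15.1%). Mitotic-high cells were 8.04% and 4.36% of the former and 17.6% and 5.84% of the latter. The Pf4-led cluster had 53 cells in Ctrl and 754 in KD, so it was mostly 1 library, and 5.88% and 1.54% of its cells were mitotic-high.

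The Vcan-led macrophage cluster, 377 Ctrl and 451 KD cells led by monocyte genes, went the other way. Its mitotic sum was 522 CPM in Ctrl and 1231 in KD (log2 1.24; 1.14 to 1.34), and its S-phase sum 265 and 445 (0.75; 0.60 to 0.89). Of 16 mitotic genes with enough UMIs 14 were called higher, and of 10 S-phase genes 8, where 8.6% of features were. Birc5 had 15 UMIs in Ctrl and 178 in KD (2.92; 2.16 to 3.79), Mki67 22 and 140 (2.02; 1.37 to 2.74), and Pclaf 22 and 185 (2.43; 1.78 to 3.14), while Pcna, at 105.8 and 103.0 CPM (-0.04), and Slbp (0.08) were at nearly the same level. Mitotic-high cells were 3 of 367 (0.817%) and 25 of 445 (5.62%). Among the KD cells 11 carried at least 3 UMIs of Elane, Mpo, Prtn3 and Ctsg, genes of the primary granules of granulocyte and monocyte precursors, against 0 Ctrl cells, and 7 of these 11 were mitotic-high. Among cells with fewer, 0.817% and 4.15% (18 of 434) were. The 11 cells also carried much of the sums: in the thinned cells with fewer of these UMIs the mitotic sum was 496 CPM in Ctrl and 669.7 in KD, and the S-phase sum 263 and 227. Without the 11 cells the S-phase sum was thus no longer higher in KD, while the mitotic sum still was. No counting interval was computed for either difference. Without the whole cluster, macrophages had a log2 ratio of -1.03 for the mitotic sum and mitotic-high shares of 10.4% and 3.72%.

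In cDCs the Xcr1-led cluster, 64 and 115 cells, had a mitotic sum of 2679 CPM in Ctrl and 1430 in KD (log2 -0.91; -0.998 to -0.81), with 18 of 21 mitotic genes called lower (10.8% of features). In the Cd209a-led cluster, 304 and 456 cells, the sum was 1316 and 1247 (-0.08; -0.15 to -0.01), with 3 of 25 mitotic genes called lower and 1 higher (5.66% and 6.7% of features). The difference in the mitotic sum was therefore larger in the smaller cluster. There 20.6% (13 of 63) of cells were mitotic-high in Ctrl and 9.57% (11 of 115) in KD, a difference of -11.1 points (-24.0 to 0.41). In the Cd209a-led cluster 13.5% and 10.7% were, a difference of -2.74 points (-8.03 to 2.23). Both intervals held 0. In granulocytes the Camp-led cluster, 38 and 330 cells led by genes of immature granulocytes, made up 4.89% of the Ctrl and 14.8% of the KD class. Its mitotic sum, 1196 and 1388 CPM (0.21; 0.03 to 0.40), was above that of the G0s2-led cluster, 558 and 620 (0.15; 0.05 to 0.26). Of its thinned cells 3 in KD and 0 in Ctrl had at least 3 UMIs of Elane, Mpo, Prtn3 and Ctsg, and 2 of these 3 were mitotic-high. Among those with fewer the mitotic sum was 907 CPM in Ctrl and 938 in KD, with no interval computed. Of these cells 2 of 36 and 9 of 324 were mitotic-high. Without Hmgb2 the sum of the G0s2-led cluster was 141 and 121 (-0.22; -0.44 to 0.01), so its direction turned on that gene. In the G0s2-led cluster Birc5 was 11.8 and 2.50 CPM (-2.24; -3.38 to -1.15) and Top2a 13.7 and 5.57 (-1.30), while Kif23 was 21.8 and 56.1 (1.36; 0.86 to 1.91). Of the 5 mitotic genes with enough UMIs there, Kif23 and Hmgb2 had a ratio above 0 and 3 had one below.

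How closely each gene marked dividing cells was read from where its UMIs lay. For each gene, cells with at least 3 of the other mitotic genes were found, and the percent of its UMIs that fell in them was taken. In Ctrl T cells those cells were about as many as the mitotic-high share, and they held 96.8% of the Plk1, 94.4% of the Tpx2, 94.2% of the Ccna2 and 94.1% of the Cdc20 UMIs. Mki67, at 82.2%, and Top2a, at 78.4%, were lower. Cenpa (59.6%) and Hmgb2 (62.3%) were the least concentrated of the mitotic set. S-phase genes were spread more widely, with Mcm6 at 43.5%, Slbp at 47.1% and Pcna at 56.5%, but Pclaf (86.4%) and Rrm2 (83.6%) lay among the mitotic genes. The concentration is a description, since the members themselves defined the cells.

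In Ctrl macrophages, where 9.51% of cells were mitotic-high, Ccnb1 (86.7%), Plk1 (85.2%) and Cenpf (79.5%) were the most concentrated, and Pclaf (74.1%) and Rrm2 (72.5%) again stood with them. Slbp (18.1%), Pcna (20.7%), Hmgb2 (29.7%) and Cenpa (32.2%) had most of their UMIs in other macrophages. The genes nearest 0 in the comparison of KD with Ctrl macrophages, Slbp, Cenpa and Pcna, were thus also among the least concentrated, and Cenpf, the lowest, was among the most.

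**Figure D5:**
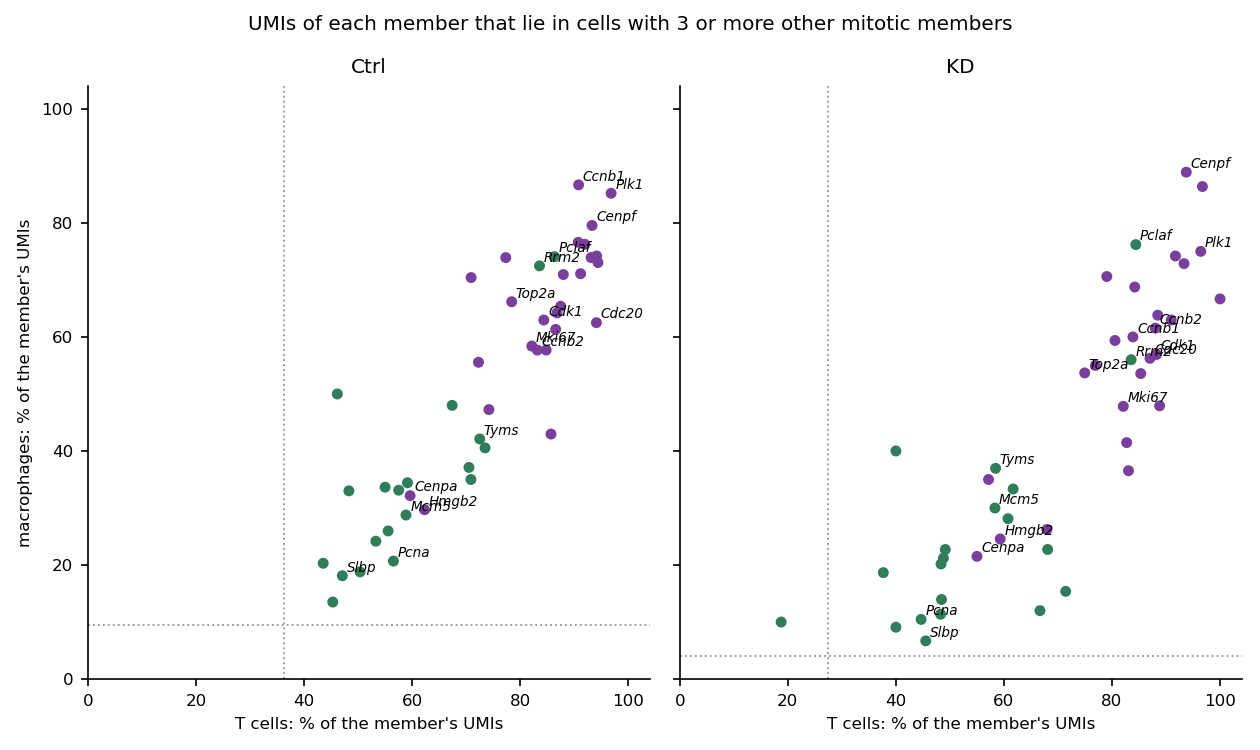
Percent of each gene's UMIs that lie in cells with at least 3 other mitotic genes, in T cells (horizontal axis) and macrophages (vertical axis), Ctrl left and KD right, S-phase genes green and mitotic genes purple, with dotted lines at the percent of cells that were mitotic-high. Plk1 and Cenpf lie at the upper right, Slbp and Pcna at the lower left, and the S-phase genes Pclaf and Rrm2 among the mitotic ones.

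Other genes of the cell cycle were read from 5 lists. In T cells none of 20 other replication enzymes passed 1.5-fold, though 19 had a ratio below 0, with Mcm10 (20.1 and 15.6 CPM, log2 -0.36) and Tk1 (-0.35) lowest and Asf1b (0.03) highest. Of 25 other mitotic genes 2 were called lower, where 5.24% of all features were, namely Cdc25c (10.8 and 6.24 CPM, -0.80), a phosphatase that activates Cdk1, and Wee1 (33.2 and 21.2, -0.65), the kinase that restrains it. None of 10 E2F, MYB and FOXM1 regulators and none of 12 cell cycle inhibitors was called. Of 8 G1 cyclins and kinases, Ccnd3 was called higher (90.0 and 157 CPM, 0.81), where 5.7% of all features were, and Ccnd1 lower (3.24 and 1.44, -1.17).

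In macrophages 10 of 20 other replication enzymes were called lower, where 9.42% of all features were, with Pold1 (8.35 and 3.44 CPM, log2 -1.28) and Tk1 (18.5 and 7.76, -1.25) lowest and Rpa3 (-0.18) highest. Of 25 other mitotic genes 18 were called lower, from Kif4 (11.2 and 3.78, -1.56) and Ttk (-1.39) to Pttg1 (0.02) and Espl1 (0.30). Of 10 regulators 5 were called lower, among them Mybl2 (4.74 and 2.07, -1.19) and E2f7 (-1.18), while Myc stood at -0.08 and Tfdp1 at -0.05. Of 11 inhibitors 1 was called, Rbl1 (24.3 and 15.3, -0.67), a partner of repressive E2F factors. Of 8 G1 genes 3 were called lower, Ccne1 (12.03 and 4.31, -1.48) and Ccnd1 (160.1 and 69.2, -1.21) the most, and Ccnd3 was called higher (85.3 and 129.98, 0.61), where 6.34% were. Replication enzymes and mitotic genes outside the 46 therefore lay lower in KD macrophages as the members did. In cDCs 3 of 20 replication enzymes and 4 of 20 other mitotic genes were called lower, where 5.5% of all features were, with Dtl (24.0 and 10.9, -1.14) and Mad2l1 (22.9 and 12.1, -0.92) lowest.

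Mitotic-high cells also differed from the other cells of their class in genes outside the cell cycle, read in the thinned cells as log2 ratios of mitotic-high over other cells. In T cells Il7r (-1.96 in Ctrl, -2.41 in KD) and Tcf7 (-1.81 and -2.56), genes of naive and memory cells, were lower in mitotic-high cells, and the 6 measured naive or progenitor genes had medians of -1.63 and -0.78. Foxm1 (3.93 and 4.04) and Mybl2 (3.17 and 3.48), regulators of the mitotic programme, were higher, as were 20 of 22 other mitotic genes in both libraries. Ccnd3 (-1.20 and -1.25) was lower, and the inhibitor Cdkn2c (1.19 and 2.36) higher. Of 7 exhaustion genes 6 in Ctrl and 2 in KD had an interval below 0 and none had one above, with medians of -0.28 and -0.09, and Ctla4 (-0.56 and -0.86) and Tigit (-0.46 and -0.61) were lower in both libraries. Of 7 effector genes, 1 in Ctrl had an interval above 0 and 3 had one below. In KD 5 had one above and none had one below, and the medians were -0.24 and 0.58. Among them Gzma took opposite sides, with 316 CPM in mitotic-high and 545 in other cells in Ctrl (-0.79), and 2951 and 1367 in KD (1.11).

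In mitotic-high macrophages the 7 monocyte genes were lower than in other macrophages in Ctrl, with a median of -1.87, but near level in KD, at -0.13. F13a1 was -1.99 in Ctrl and 0.88 in KD, and Ly6c2 -1.87 and 0.42. In KD 1 of the 7 had an interval above 0 and 1 had one below. Of the mitotic-high macrophages, 3 of 365 in Ctrl and 25 of 118 in KD lay in the Vcan-led cluster. Of 8 mature macrophage genes 4 had an interval above 0 in both libraries and 1 had one below in both. Their medians were 0.26 in Ctrl and 0.12 in KD. C1qc (0.80 and 0.51) and Mrc1 (0.57 and 0.77) were on the higher side. Nos2 (-1.33 and -2.23) and the inhibitor Cdkn1a (-1.05 and -0.76) were lower in mitotic-high macrophages. Of 10 inhibitors 3 were higher and 3 lower there in both libraries. In granulocytes the early granule genes were higher in the few mitotic-high cells, with medians of 3.47 and 3.31. Summed T cell markers were also higher there, at 381 and 167 CPM (4 and 5 UMIs) against 82.6 and 34.3 in other granulocytes. Summed macrophage markers there were 571 CPM in Ctrl (6 UMIs) and 1700 in KD (51 UMIs), against 591 and 567. T cell markers were also higher in mitotic-high endothelial cells (821 and 667, from 16 and 29 UMIs, against 103.0 and 108). In mitotic-high B cells they were 1833 and 667 (11 and 5 UMIs) against 212 and 99.2. The part of these markers in the small shares was not tested.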

How the data were processed

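Pooled CD45+ cells of liver metastases from 3 mice per group were profiled in 1 Ctrl and 1 KD library by 10x 3' chemistry. Per the labels and the submitters' processing notes, the authors aligned reads to GRCm39 with Cell Ranger 7.1.0 and analysed them with Seurat 5.1.0 in R 4.4.1, and they deposited UMI counts per gene and barcode, not normalised. The annotation release is not given in the sources used here.

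Barcodes were dropped below 200 detected genes, above 6000 genes or 30000 UMIs, or where mitochondrial UMIs passed 10%. Seurat 5.3.0 in R 4.3.3 clustered both libraries together on 2000 variable genes without 385 cell cycle genes, with 20 components at resolution 0.5. A cluster was named from at least 3 markers, so classes are rebuilt and not the authors' own. No doublet caller was run, and the upper limits and an alternative without cells holding markers of another class stood in for it.

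UMIs of each gene were summed per class and library and divided by the class total (CPM). Ratios have exact conditional binomial intervals and shares exact Clopper-Pearson intervals, at 95%. With 1 library per group no test was made. A call is a ratio past 1.5-fold with at least 50 UMIs over both libraries. Shares were taken in cells thinned to 1500 UMIs, leaving out in Ctrl and KD 181 and 48 T cells, 294 and 145 macrophages, 124 and 181 granulocytes, and 23 and 9 cDCs that were shallower. Ratios between mitotic-high and other cells were read for genes with at least 20 UMIs in each library. Intervals and ratios were tested on simulated data with known answers in Python 3.11.15 (numpy 2.4.6, scipy 1.17.1, pandas 2.3.3), and edgeR 4.0.16 gave the TMM scaling used as an alternative. The simulated counts were drawn independently, so clumping of UMIs within cells was not part of that check.

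Named in each of T cells, macrophages, granulocytes and cDCs were 12 fixed members and the 3 highest and 3 lowest ratios with at least 50 UMIs, and of other lists the 2 highest and 2 lowest, of which 1 gene is not reported here. Members of the Klra7-led class, endothelial cells, tumour or fibroblast cells and single clusters, and genes named for mitotic-high cells, were chosen after their values were seen. The members and the lists were chosen with earlier results of these data known. Alternatives covered cell filters, doublets, class naming, resolution, cell cycle genes in clustering, scaling, weighting, UMI minimum, thinning depth and the number of members per cell.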

Additional observations from a re-analysis of the deposited data

Results flagged for a closer look

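The mitotic sum did not have 1 direction across classes. Its log2 ratio of KD over Ctrl was -0.19 in T cells, -0.74 in macrophages and -0.40 in cDCs, but 0.41 in granulocytes and 0.59 in the Klra7-led class, which mixed cells with Cd3 and cells with NK genes. The difference between these classes was not tested, since each rests on 1 library per group.

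Macrophage clusters also took opposite sides. The S-phase sum had a log2 ratio of -0.53 in the Cxcl9-led and -1.29 in the Cadm1-led cluster, but 0.75 in the Vcan-led cluster. That cluster held 11 KD cells with granule genes. In its thinned cells without them the S-phase sum was 263 CPM in Ctrl and 227 in KD, with no interval computed. The mitotic sum had -0.73 and -1.11 in the former clusters and 1.24 in the Vcan-led one, with 496 and 669.7 CPM in its thinned cells without those 11. This difference was not tested.

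CD8 T cells with a Gzma UMI had a mitotic-high share 12.2 percentage points higher in KD, and those without a share that differed by -6.16 points. The difference between them was not tested, and the split was read from Gzma itself, which was higher in KD T cells. The unnamed cluster led by Ifng and Gzma, outside this split, was 28.8% mitotic-high in Ctrl and 22.6% in KD.

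Cells above the upper limits on UMIs and genes, which enter no comparison, were mitotic-high in 70.7% of 58 Ctrl cells (57.3 to 81.9) and 71.1% of 45 KD cells (55.7 to 83.6), against 18.2% and 7.92% of the kept cells. Of them 27 in Ctrl and 29 in KD fell in the tumour or fibroblast class, and 15 and 8 were T cells.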

How the results depend on the processing

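No paired analysis was possible because each group has 1 library and the result comes from no test. For 40 summary values and 264 alternatives, 197 stayed within counting error (counts within 1.5 times), 66 moved beyond it and 1 reversed. For the named members 474 of 528 stayed, 50 moved and 4 reversed. The sums of T cells, macrophages and cDCs stayed below 0 in every alternative tried. Depth limits the members of granulocytes and of the small classes most, and with 1 library per group the spread between mice is unknown. In each alternative the Klra7-led class stands for the cells that met the rule for NK cells. The cause of each move was not tested unless the alternative's own construction shows it.

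With cell cycle genes kept in the clustering, the mitotic log2 ratio of the Klra7-led class reversed to -0.40 and Rrm2 in granulocytes to -0.12, and the sums (S-phase, then mitotic) were -0.20 and -0.091 in T cells, -0.55 and 0.28 in granulocytes, and -0.25 (S-phase) in the Klra7-led class, with mitotic sums of -0.71 in macrophages and -0.30 in cDCs. With classes from markers of single cells they were -0.38 and -0.35 in T cells, -0.59 and -0.69 in macrophages, 0.60 and 1.31 in the Klra7-led class, and -0.087 (S-phase) in granulocytes, where Cdc20 reversed to -0.40, and shares differed by -12.1 (mitotic-high) and -11.0 (S-high) points in T cells and by 4.39 and 4.98 points in the Klra7-led class. At resolution 1.0 the sums were -0.56 and -0.67 in T cells and 0.22 and 1.11 in the Klra7-led class. With equal weight per cell they were -0.24 and -0.21 in T cells, -0.59 (S-phase) in macrophages, and for the mitotic sum 0.26 in granulocytes, -0.26 in cDCs and 0.20 in the Klra7-led class, with Rrm2 (-0.12) and Ube2c (-0.19) reversed in granulocytes. TMM scaling gave -0.62 and -0.69 in macrophages. Without the upper limits the mitotic sum was -0.78 in macrophages and the S-phase sum -0.42 in cDCs.

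At a minimum of 1 UMI, granulocytes had 9 S-phase genes lower and 2 higher, and 1 mitotic gene lower and 10 higher. At a minimum of 200 UMIs they had 0 S-phase and 1 mitotic gene higher, cDCs 0 and 3 lower, and the Klra7-led class 1 and 3 higher. A cut at 2 members gave mitotic-high differences of -11.7 points in T cells, -9.03 in macrophages, 1.42 in granulocytes and -2.81 in the Klra7-led class, and S-high differences of -6.72 in macrophages and -3.16 in the Klra7-led class. A cut at 5 gave mitotic-high differences of -4.64 in T cells and -2.86 in macrophages, and S-high differences of -3.52 in T cells, -0.985 in macrophages and 0.0979 in granulocytes. Thinning to 3000 UMIs gave mitotic-high differences of -8.72 in macrophages, -2.60 in granulocytes and -2.33 in the Klra7-led class and an S-high difference of -8.43 in macrophages, and thinning to 1000 gave -1.91 for the last. No thinning gave an S-high difference of -5.58 in macrophages and a mitotic-high difference of 1.16 in granulocytes.

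Of the alternatives chosen after seeing the data, leaving out Hmgb2 gave mitotic sums of -0.22 in T cells, -0.86 in macrophages and 0.73 in the Klra7-led class. Leaving out the Vcan-led cluster gave macrophage sums of -0.76 and -1.03 and a mitotic-high difference of -6.71 points. Leaving out cells with a barcode in both libraries moved no summary value beyond counting error.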

Other observations

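Cell state genes outside the cell cycle differed between the libraries as well. In KD T cells 6 of 7 naive or progenitor genes were called higher, among them Tcf7 (25.0 and 47.7 CPM, log2 0.93) and Slamf6 (21.8 and 49.1, 1.17), where 5.7% of all features were, and their median was 0.99 against -0.03 over all features. Of 7 exhaustion genes 1 was called, Ctla4, higher (294 and 541 CPM, 0.88), with a median of -0.03. Of 7 effector genes 2 were higher, Gzma the most, and 2 lower, Prf1 (397 and 233, -0.77) and Cx3cr1 (-0.75).

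In KD macrophages 4 of 7 monocyte genes and 3 of 8 mature macrophage genes were called higher and 1 of the latter lower, and of 7 inflammatory genes 3 were lower and 1 higher, where 6.34% of all features were called higher and 9.42% lower. No MHC class II gene of 5 was called. All 10 early granulocyte genes were called higher in macrophages, with a median of 2.63, beside granulocytes that were 7.92% of the kept cells in Ctrl and 21.8% in KD, and the part of free granulocyte RNA in this was not tested. Within granulocytes 7 of 10 early genes were called higher in KD, where 21.4% of all features were, and of 8 late genes 4 lower and 1 higher, where 14.7% of all features were called lower.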
